A study of Rattus norvegicus with 4 samples.

Results

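The sulphate and phosphate transporters of rat choroid plexus and kidney proximal tubule were taken from the study's 3 lists of plasma membrane transporters and pumps, which cover choroid plexus, sorted epithelial cells and proximal tubule. Genes whose names start with SLC13A, SLC20A or SLC34A were included together with XPR1, which gave 8 of the 263 genes in these lists. The study sequenced RNA from Sprague Dawley rats aged 9 weeks, in 4 libraries, and the labels give no genetic change or experimental treatment in any group. All rats were anaesthetised with xylazine and ketamine before the tissue was taken. One library held whole choroid plexus pooled from 5 male rats and another that of 5 female rats. A further library held epithelial cells from the choroid plexus of 10 male rats, released with collagenase and captured by fluorescence-activated cell sorting (FACS) with an antibody against NKCC1, the protein of SLC12A2. The last held proximal tubules of 5 male rats, picked by hand after enzymatic digestion of the kidney. By the study's methods the kidneys came from the male rats, so the tubule and male choroid plexus pools may share animals. Each condition has 1 library of pooled animals, which leaves the spread between animals unknown and differences between libraries without a replicate to check them. The lists were drawn up by the study from these libraries, so being on a list is not independent evidence of expression. SLC13A1, SLC13A2 and SLC34A1 were on the tubule list only, and SLC13A4 and SLC20A2 only on those of choroid plexus and sorted cells.

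The choroid plexus secretes cerebrospinal fluid, and its epithelium moves anions between blood plasma and that fluid. Sulphate and inorganic phosphate are charged and need carriers to cross a cell membrane. In the SLC13 family, SLC13A1 (NaS1) and SLC13A4 (NaS2) couple the entry of sulphate to that of sodium, while SLC13A2 (NaDC1) and SLC13A3 (NaDC3) do so for dicarboxylates such as succinate. SLC20A1 (PiT-1) and SLC20A2 (PiT-2) bring phosphate into most cell types together with sodium, SLC34A1 (NaPi-IIa) is a main route of phosphate reabsorption at the brush border of the proximal tubule, and XPR1 exports phosphate from cells. Mutations in SLC20A2 and in XPR1 are known from familial brain calcification.

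Promoters are shown for the genes that differed most between the epithelia, the sulphate carrier of each and the tubule's phosphate carrier. The 250 bases before the annotated start are RefSeq sequences of the GRCr8 assembly, 5′ to 3′ on the gene's own strand, and 6 of the 8 genes had an entry. SLC13A4 is at chr4:64955987-64956236, SLC13A1 at chr4:53612705-53612954 and SLC34A1 at chr17:9238984-9239233, all on the minus strand. Capitals mark matches, on either strand, to TATAAA of the basal promoter, to the promoter element CCAAT, to the GC box GGGCGG, to TAATCC, the core of sites for OTX factors, and to GTTAAT, which is part of sites for HNF1 factors.
SLC13A4: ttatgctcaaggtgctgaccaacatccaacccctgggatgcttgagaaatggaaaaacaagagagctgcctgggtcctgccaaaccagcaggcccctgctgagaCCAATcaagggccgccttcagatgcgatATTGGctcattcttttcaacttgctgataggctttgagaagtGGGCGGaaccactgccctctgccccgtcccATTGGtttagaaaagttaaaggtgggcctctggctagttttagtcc
SLC13A1: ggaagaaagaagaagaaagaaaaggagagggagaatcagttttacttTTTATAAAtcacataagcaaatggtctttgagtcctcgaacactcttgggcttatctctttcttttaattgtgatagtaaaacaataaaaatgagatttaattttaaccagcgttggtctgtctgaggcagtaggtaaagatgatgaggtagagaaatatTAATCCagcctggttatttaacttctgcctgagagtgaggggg
SLC34A1: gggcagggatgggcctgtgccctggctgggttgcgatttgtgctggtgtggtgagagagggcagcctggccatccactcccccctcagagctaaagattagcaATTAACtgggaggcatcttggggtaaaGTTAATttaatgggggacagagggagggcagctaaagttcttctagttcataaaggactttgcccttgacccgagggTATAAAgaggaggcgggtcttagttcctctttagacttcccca

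In SLC13A4, CCAAT matches began 146, 118 and 46 bases before the start and a GC box match 76 bases before it. In SLC13A1, TATAAA matched on both strands in overlapping positions, 203 and 201 bases before the start, and TAATCC matched 43 bases before it. In SLC34A1, TATAAA began 43 bases before the start, with GTTAAT matches 147 and 120 bases before it. Of 33469 rat promoters of the same length, 12.9% held TATAAA, 34.0% CCAAT, 30.5% GGGCGG, 6.34% TAATCC and 6.45% GTTAAT. The share of G and C was 52.0% in SLC13A4, 36.4% in SLC13A1 and 53.2% in SLC34A1, against a median of 51.2% over all promoters. The XPR1 promoter (chr13:70136165-70136414, minus strand) stood apart from these 3, with more G and C than 91.8% of all promoters and 5 GC box matches, the first 204 and the last 61 bases before the start, of which the middle 3 overlapped each other. Such matches describe letters in a window and not bound sites.

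Levels are given as TPM, an abundance per transcript length scaled to the same total in every library, with the expected count, the estimated number of read pairs behind it. Expected counts summed to between 23873318 and 28324976 per library. The 13 mitochondrially encoded genes took 4.32 to 5.34% of them in the choroid plexus libraries and 70.7% in the tubule library. For comparisons with the tubule these genes were therefore removed and the TPM of all libraries scaled again (rescaled TPM). All 7 epithelial markers were present in each choroid plexus library, from 314 TPM (SLC4A5, FACS) upwards. In the tubule library 4 of them were at 0 and TTR had 1 count, while AQP1 had 47.7 and FOLR1 37.2 rescaled TPM. All 7 tubule markers with a name, of 9 on the list, were found in the tubule library, with 7371 rescaled TPM for SLC7A13. The distal nephron markers were not at 0 there either, with all 6 named markers above 0, 123 rescaled TPM in sum and KCNJ1 the highest at 89.3. Names came from the study's lists of genes expressed in these libraries. That named markers were found in the tissue that listed them was therefore largely fixed beforehand. SLC7A13, SLC5A12, SLC17A3, KCNJ1 and AQP3 were under the study's cut-off of 0.5 TPM in every choroid plexus library, so their names came through the tubule.

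The tubule library also stood apart in its low counts. It listed 6274 genes above 0, compared with 15391 to 16720 in the choroid plexus libraries. In the male library the number of genes was highest in the lowest bin (1863 genes below 5 counts) and fell to 216 genes at 25 to 30 counts, and 15.8% of the genes above 0 had fewer than 10 counts. In the tubule library this share was 2.65%, and the genes gathered around 50 counts instead, with the most genes (267) in the bin of 50 to 55 counts and a lower second peak (105 genes) at 95 to 100. Genes with 30 to 70 counts made up 26.1% of those above 0 in the tubule and 6.96% in the male library. The counts of SLC13A2 (48), SLC13A3 (51) and XPR1 (94) lay in or next to these 2 peaks. Counting intervals are therefore not given for the tubule, and a gene at 0 in it is said to be listed at 0.

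**Figure D1:**
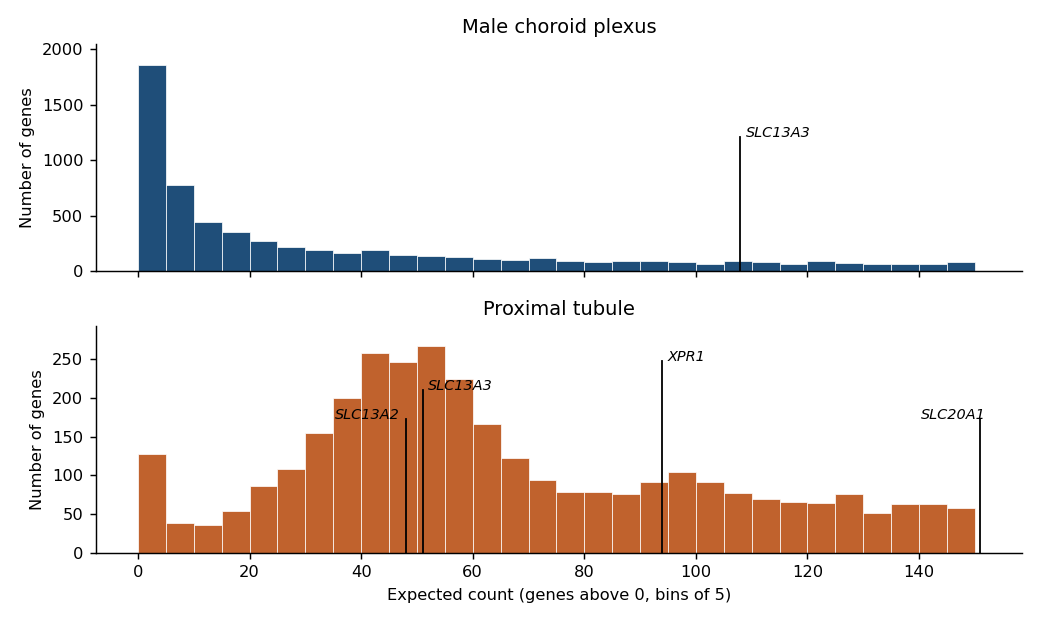
Number of genes (y axis) by expected count (x axis, bins of 5, genes above 0) in the male choroid plexus and proximal tubule libraries, with vertical lines at the sulphate and phosphate transporters of 151 counts or fewer. The male library falls from its lowest bin, whereas the tubule library peaks at 50 to 55 counts, with SLC13A3 in that bin and SLC13A2 in the one before it.

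Sulphate carriers were divided between the 2 epithelia. SLC13A4 (ENSRNOG00000011184) was the highest of the 8 genes in each choroid plexus library, with 627 TPM (620 to 634, from 27626 counts) in the male, 494 TPM (488 to 501) in the female and 445 TPM (439 to 451) in the FACS library. Among the 263 transporters and pumps it ranked 6, 7 and 6 in these libraries, and among all genes 159, 211 and 180. It was listed at 0 in the proximal tubule. SLC13A1 (ENSRNOG00000008121) showed the converse. It had 0 counts in the male, the female and the FACS library, where 3 counts would correspond to 0.0455, 0.0464 and 0.0431 TPM, and 10787 counts in the tubule, or 107 TPM and 385 rescaled TPM. It ranked 4 among the transporters and pumps of the tubule. The rescaled TPM of SLC13A1 in the tubule was thus of the order of that of SLC13A4 in choroid plexus, which was 684 in the male, 527 in the female and 474 in the FACS library. In such bulk libraries fewer cells of a type and less RNA per cell cannot be told apart.

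Dicarboxylate carriers of the same family were low throughout. SLC13A3 (ENSRNOG00000019118) had 1.51 TPM (1.24 to 1.82, 108 counts) in the male, 2.33 TPM (1.99 to 2.72, 164 counts) in the female and 1.0 TPM (0.788 to 1.25, 76 counts) in the FACS library, and 0.470 TPM (1.69 rescaled, 51 counts) in the tubule. Its interval in the female library did not overlap those of the other choroid plexus libraries, while those of the male and FACS libraries overlapped. The male and female intervals of SLC13A4, SLC20A1, SLC20A2 and XPR1 did not overlap either. Such intervals hold counting error only, and the share of all genes without overlap was not computed. SLC13A2 (ENSRNOG00000010337) had 0 counts in the 3 choroid plexus libraries, with 3 counts corresponding to at most 0.0616 TPM, and 48 counts in the tubule (0.680 TPM, 2.44 rescaled).

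Among the sodium phosphate cotransporters SLC20A2 (ENSRNOG00000019490) was the main choroid plexus transcript. It had 182 TPM (179 to 184, 14917 counts) in the male, 158 TPM (155.4 to 160.9) in the female and 163 TPM (160 to 166) in the FACS library, where it ranked 20, 21 and 16 among the transporters and pumps, and it was listed at 0 in the tubule. SLC20A1 (ENSRNOG00000018567) had 42.3 TPM (40.7 to 43.8, 2920 counts), 37.2 TPM (35.8 to 38.7) and 44.3 TPM (42.8 to 45.9) in the same order and 1.43 TPM (5.13 rescaled, 151 counts) in the tubule. SLC20A2 was therefore 4.29 times as abundant as SLC20A1 in the male, 4.25 times in the female and 3.67 times in the FACS library. SLC34A1 (ENSRNOG00000015262) had 0 counts in all 3 choroid plexus libraries, where 3 counts correspond to 0.0515 to 0.0553 TPM. In the tubule it had 1588 counts, which gave 18.9 TPM and 67.7 rescaled TPM and rank 14 among the transporters and pumps.

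The phosphate exporter XPR1 (ENSRNOG00000000042) had 50.5 TPM (48.6 to 52.5, 2685 counts) in the male, 37.6 TPM (36.0 to 39.3, 1959 counts) in the female and 16.1 TPM (15.1 to 17.2, 894 counts) in the FACS library, and 1.21 TPM (4.34 rescaled, 94 counts) in the tubule. In the male library it lay above SLC20A1, in the female library the intervals of the 2 genes overlapped, and in the FACS library it lay below, with SLC20A1 at 2.75 times its level. The order of the other choroid plexus members was the same in the 3 libraries, SLC13A4 over SLC20A2 over SLC20A1, with SLC13A3 lowest of those found.

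**Figure D2:**
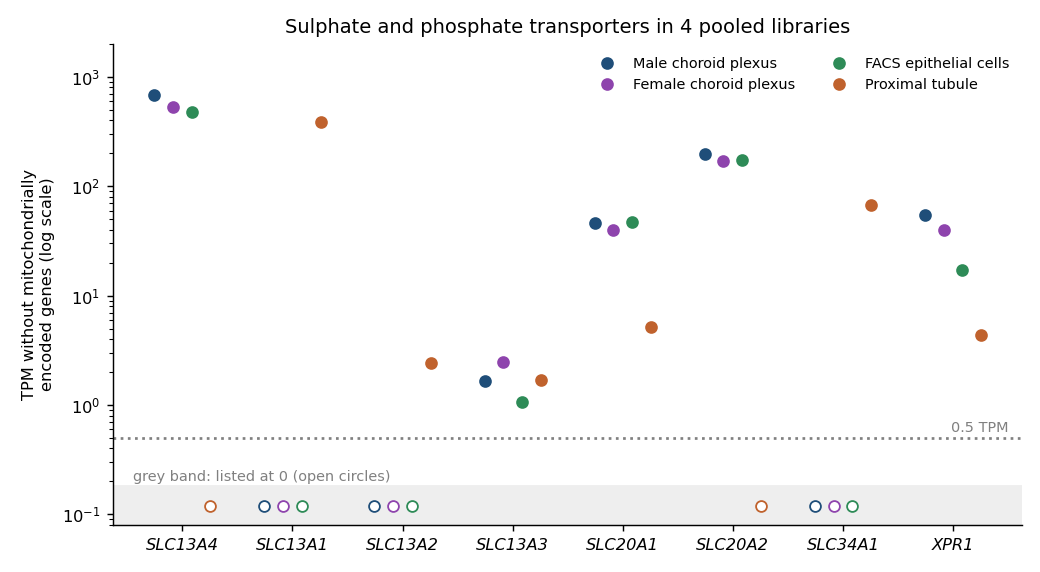
Rescaled TPM (y axis, log scale) of the 8 genes (x axis) in the 4 libraries, 1 point per library of pooled animals, with open circles in the grey band for values of 0 and a dotted line at 0.5 TPM. SLC13A4 and SLC20A2 are high in the 3 choroid plexus libraries and at 0 in the tubule, SLC13A1 and SLC34A1 show the converse, and SLC13A2 is low in the tubule and at 0 elsewhere.

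At the study's cut-off of 0.5 TPM, the same 5 genes, SLC13A3, SLC13A4, SLC20A1, SLC20A2 and XPR1, were transcribed in each of the choroid plexus libraries. In the tubule 5 genes passed with the deposited TPM and 6 after rescaling, the sixth being SLC13A3, just under the cut-off before. SLC13A4 made up 69.5% of the summed rescaled TPM of the 8 genes in the male, 67.7% in the female and 66.5% in the FACS library. SLC20A2 made up 20.1, 21.7 and 24.3% in the same order. SLC20A1 took 4.68, 5.10 and 6.62%, and XPR1 5.60, 5.16 and 2.41%. In the tubule 82.6% was SLC13A1 and 14.5% SLC34A1, and the other 4 genes found shared the rest. A sulphate carrier was thus the largest item in each library, and the phosphate carriers after it belonged to type III (SLC20) in choroid plexus and to type II (SLC34) in the tubule. The 8 genes held 5.49% of the summed TPM of the 263 transporters and pumps in the male, 4.94% in the female, 5.25% in the FACS and 3.31% in the tubule library.

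**Figure D3:**
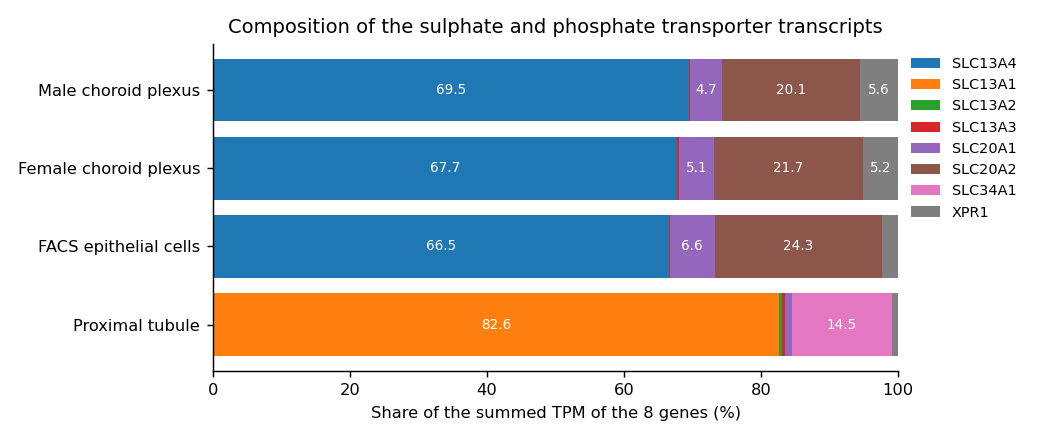
Share of each gene (coloured segments, x axis in percent) in the summed rescaled TPM of the 8 sulphate and phosphate transporters, with 1 bar per library. SLC13A4 takes 66.5 to 69.5% in the choroid plexus libraries, and SLC13A1 takes 82.6% in the proximal tubule.

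The FACS library was compared with the whole male tissue, as in the study. Markers of immune and other cells were present in the FACS library, so the comparison cannot assign a transcript to the epithelial cells. Only 1 of the 5 members tested moved by more than 2-fold relative to the median gene, and that was XPR1, which was lower. Its TPM was 3.14-fold lower in the FACS library (2.91 to 3.39). Over the 14024 genes that reached 0.5 TPM in one library or the other, the median ratio was -0.58 on the log2 scale of TPM + 1. The counting interval of the plain TPM ratio of XPR1, without the added 1, was -1.18 to -0.96 on the log2 scale after that median was subtracted. On the scale of TPM + 1 XPR1 was at -1.01 relative to the median, and 5.94% of the genes lay below it. Of all genes tested, 6.03% were at least 2-fold lower and 10.9% at least 2-fold higher on this scale. The call sits on the threshold and was lost with 6 of the 9 alternatives tried. Without the reference to the median gene XPR1 had a log2 ratio of -1.59, and 25.5% of all genes were then called lower and 4.61% higher.

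The other members were closer to the median gene. SLC13A4 was 1.41-fold lower in TPM (1.38 to 1.43) and at 0.09 relative to the median gene on the log2 scale, a sign that turns to -0.49 without that reference. SLC20A2 was 1.11-fold lower (1.09 to 1.14) and at 0.43 relative to the median gene, or -0.15 without the reference. SLC20A1 was the one member with a higher TPM in the FACS library, by a ratio of 1.05 whose counting interval of 0.998 to 1.10 includes 1, and it lay at 0.65 relative to the median gene. SLC13A3 was 1.51-fold lower (1.12 to 2.05) and at 0.25 relative to the median gene (-0.33 without the reference). The median over the 5 members was 0.25, beside 0 over all genes by construction. In the FACS library the SLC20 transcripts together were 12.9 times those of XPR1, compared with 4.43 times in the male and 5.19 times in the female tissue.

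Markers of other cells moved between these libraries as well. The 3 immune markers with a name, of 4 on the list, were all more than 2-fold higher in the FACS library relative to the median gene, and their summed level was 4574 TPM compared with 829 TPM, with CSF1R at 79.1 and 16.5 TPM. The 4 endothelial markers summed to 76.1 and 65.9 TPM, with KDR lower (23.5 and 25.5 TPM) and the other 3 higher. The 3 mesenchymal markers summed to 312 and 205 TPM, of which DCN made 239 and 102 TPM, while PDGFRA was lower, at 49.3 and 83.4 TPM. No marker of these lists was at 0. Of the 7 epithelial markers only TTR was more than 2-fold higher relative to the median gene, taking 39.0% of the TPM in the FACS and 23.9% in the male library. FOLR1 stood at 2725 TPM after the sort and at 2058 TPM in whole male tissue. The TPM of the remaining markers was lower after the sort. It was 314 compared with 881 for SLC4A5, 685 compared with 1372 for KCNJ13 and 848 compared with 1302 for CLIC6. HTR2C had 497 compared with 677 TPM and AQP1 687 compared with 721 TPM. Relative to the median gene on the log2 scale, SLC4A5 was at -0.90, KCNJ13 at -0.42 and CLIC6 at -0.03. HTR2C, AQP1 and FOLR1 lay above it, at 0.14, 0.51 and 0.99. The sort gene SLC12A2 had 150 and 268 TPM. The part of these markers in the levels of XPR1 and the other members was not tested.

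In female compared with male choroid plexus, none of the 5 members tested differed by 2-fold, where 0.62% of 13869 genes were at least 2-fold higher and 0.757% at least 2-fold lower relative to the median gene. The median gene was at -0.16 on the log2 scale. SLC20A1 (1.14-fold lower in TPM, 1.077 to 1.20) and SLC20A2 (1.15-fold lower, 1.12 to 1.18) lay at -0.02 and -0.04 relative to it. SLC13A4 was 1.27-fold lower (1.25 to 1.29) and lay at -0.19, with 17.7% of the genes below it. XPR1 was 1.34-fold lower (1.27 to 1.42) and lay at -0.26, with 10.95% of the genes below it. SLC13A3 was the exception, with a TPM 1.54 times that of the male library (1.20 to 1.99), and it lay at 0.56 relative to the median gene, above 97.5% of the genes tested. It rests on 164 and 108 counts. The summed level of the 3 immune markers was 539 TPM in the female and 829 TPM in the male library, and TTR took 28.6 and 23.9% of the TPM, and their part in these ratios was not tested.

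The proximal tubule is the kidney's bulk reabsorbing epithelium and was sequenced as a second fluid-transporting tissue. The rescaled TPM of SLC13A1 was at least 7747-fold higher in the tubule than in male choroid plexus and that of SLC34A1 at least 1142-fold higher, both against 3 counts in the male library. For SLC13A2 the same bound was 37.0-fold, from 48 counts. SLC13A4 and SLC20A2, the highest choroid plexus members, were listed at 0 in the tubule against 684 and 198 rescaled TPM in the male library. Each of these genes entered only through lists of the tissue where it was high, so the direction of its difference was partly fixed beforehand. Values of 0 were common in the tubule library. Of the genes with 50 to 500 rescaled TPM in the male library 37.1% (848 of 2285) were listed at 0 in the tubule, and of those at 500 TPM or above 23.0% (51 of 222). Among transporters and pumps the numbers were 26 of 47 and 5 of 8.

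SLC20A1 was 8.99-fold and XPR1 12.7-fold lower in the tubule by rescaled TPM, and SLC13A3 was about equal in both tissues, at 1.69 and 1.65. Because so many genes were listed at 0, the median gene was itself at -2.27 on the log2 scale. Relative to it 4 members (SLC13A1, SLC13A2, SLC13A3 and SLC34A1) were at least 2-fold higher and 3 (SLC13A4, SLC20A2 and XPR1) at least 2-fold lower, where 33.7 and 34.7% of 14227 genes were called higher and lower. SLC20A1 lay between, at -0.67. XPR1, SLC20A1 and SLC13A3 did not keep their side of the 2-fold limit under every alternative. SLC13A3, with 51 counts in the tubule, was at 2.29, and at 0.02 without the median reference. XPR1 was at -1.12, and at -0.66 with a pseudocount of 0.5, at -0.84 with the female library as reference and at 0.63 with a pseudocount of 0.1. SLC20A1 ranged from 1.12 with a pseudocount of 0.1 to -1.45 with the mitochondrially encoded genes kept, leaving aside the ratio without the median reference (-2.94). Without the reference to the median gene 3 members were higher and 4 lower, beside 12.1 and 71% of all genes. SLC13A1 lay above 99.6% and SLC34A1 above 99.1% of all genes on this scale, whereas 0.239% of the genes lay below SLC13A4 and 0.935% below SLC20A2. As SLC13A4 and SLC20A2 were at 0 in the tubule, their places reflect only their male levels. Those of SLC13A1 and SLC34A1, at 0 in the male library, reflect only their tubule levels. The calls for these genes and for SLC13A2 were also partly fixed by the lists through which they entered.

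**Figure D4:**
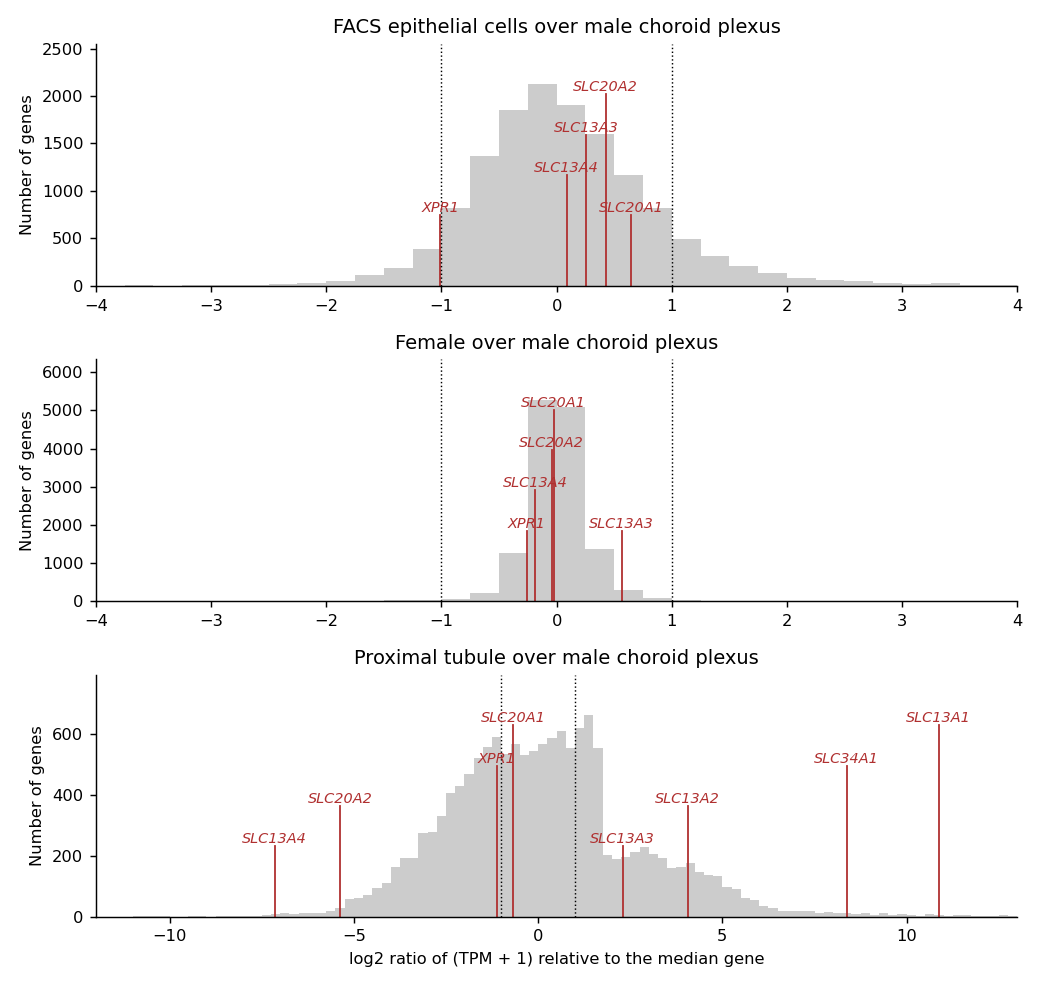
Histograms of the log2 ratio of TPM + 1 relative to the median gene (x axis, number of genes on the y axis) for the 3 comparisons, with red lines at the members tested and dotted lines at 2-fold. The members lie within 2-fold in female over male, XPR1 lies on the 2-fold line in FACS over male, and SLC13A1 and SLC34A1 lie far right and SLC13A4 and SLC20A2 far left in tubule over male.

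Other carriers of the same anions were compared next. Genes could be analysed only with a name, and names came from lists that mostly hold genes expressed in choroid plexus. That all 7 SLC26 anion exchangers were found in the male choroid plexus was therefore largely fixed beforehand. They had 39.5 TPM in sum, and SLC26A7 (17.2 TPM) and SLC26A2 (10.9 TPM), a sulphate exchanger whose loss impairs cartilage, were the highest. Their sum was thus well below the 627 TPM of SLC13A4. SLC26A2 was the one exchanger of 7 more than 2-fold lower in the FACS library relative to the median gene, beside 6.03% of all genes. It had 1.47 TPM from 99 counts there and 7.96 TPM in the female library. In the tubule 6 of the 7 were listed at 0. All 7 had between 0.5 and 50 rescaled TPM in the male library. Of all genes with 0.5 to 5 rescaled TPM there 77.8% were listed at 0 in the tubule, and of those with 5 to 50 56.2%. The exchanger above 0 was SLC26A1, the sulphate exchanger of the basolateral membrane of the tubule, with 1.79 rescaled TPM in the tubule and 0.971 in the male choroid plexus. Of 5 SLC17 genes, a family first described as sodium phosphate transporters, 4 had a name. SLC17A3, which transports urate, had 149 rescaled TPM in the tubule and 0 counts in the 3 choroid plexus libraries, and so exceeded the 67.7 rescaled TPM of SLC34A1. SLC17A2 and SLC17A4 had 5.31 and 3.23 rescaled TPM in the tubule and at most 1 count elsewhere. With such counts in choroid plexus, SLC17A2, SLC17A3 and SLC17A4 could have a name only through the tubule, so their pattern was largely fixed beforehand. SLC17A5, the lysosomal sialic acid exporter, was in all 4 libraries, at 8.02 TPM in the male.

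Of the 10 genes of the phosphate hormone axis 6 had a name. Names came from lists that mostly hold genes expressed in choroid plexus, so a level in choroid plexus was a condition for most of these genes to be seen, and the other 4 were not analysed here. KL, or klotho, the coreceptor of the phosphate-lowering hormone FGF23, had 695 TPM in the male, 603 TPM in the female and 453 TPM in the FACS library, where SLC13A4 had 627, 494 and 445 TPM, and 1.43 rescaled TPM from 53 counts in the tubule. FGFR1, FGFR2 and FGFR3, FGF receptors with which klotho can pair, had 110, 181 and 12.1 TPM in the male library and were listed at 0 in the tubule. Of all genes with 50 to 500 rescaled TPM in the male library 37.1% were listed at 0 in the tubule, and of those with 5 to 50 56.2%. PTH1R, the receptor of parathyroid hormone, was the one gene of the list higher in the tubule, with 10.4 rescaled TPM compared with 2.80 in the male library. Relative to the median gene 1 of the 6 genes was called higher in the tubule and 5 lower, beside 33.7 and 34.7% of all genes. PTH1R was also more than 2-fold higher in the FACS library relative to the median gene (4.68 and 2.57 TPM). SLC9A3R1, the scaffold that binds SLC34A1 at the brush border, had 127 TPM in the male, 129 TPM in the female and 51.5 TPM in the FACS library. In the tubule it had 4.45 rescaled TPM from 56 counts. Like the 53 counts of KL, these lay among the 30 to 70 counts around which tubule genes gathered. In FACS compared with male tissue 1 of these 6 genes was called higher and none lower, beside 10.9 and 6.03% of all genes.

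Genes that use sulphate or handle pyrophosphate had a name in part only. Of the enzymes of sulphate removal, IDS, the lysosomal iduronate sulphatase, stood at 100 TPM in whole male tissue and at 17.0 TPM after the sort, 5.90-fold lower, from 3217 and 572 counts. SUMF1, which activates sulphatases, had 98.4 and 83.0 TPM, and SULF1, an extracellular heparan sulphatase, 171 and 120 TPM. IDS, SUMF1 and SULF1 were listed at 0 in the tubule, as were 37.1% of all genes with 50 to 500 rescaled TPM in the male library. ANKH, which moves pyrophosphate out of cells, had 20.5 TPM in the male, 16.6 TPM in the female and 10.5 TPM in the FACS library and was listed at 0 in the tubule. ATP1B1, a subunit of the Na+/K+-ATPase, which maintains the sodium gradient for the cotransporters, had 1553 TPM in the male library and 98.8 rescaled TPM in the tubule.

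**Figure D5:**
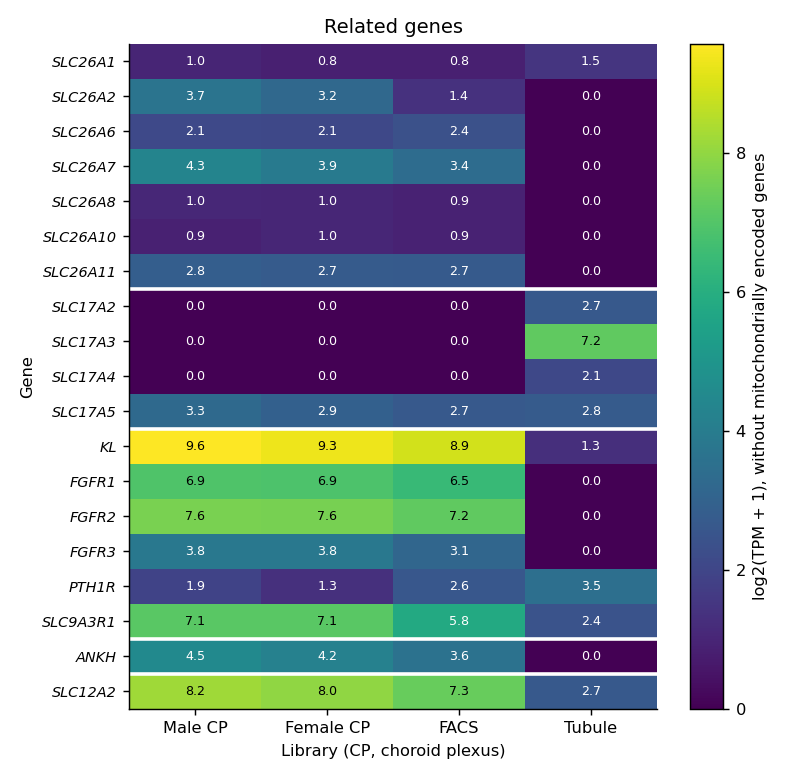
Heat map of log2(rescaled TPM + 1) for the related genes (rows, white lines between the lists) in the 4 libraries (columns), with the value in each cell. KL stands at 8.9 to 9.6 in the choroid plexus libraries and 1.3 in the tubule, and SLC17A3 at 7.2 in the tubule and 0 elsewhere.

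The transporters and pumps whose pattern over the 4 libraries was most like that of each member were found by the root mean square difference of log2(rescaled TPM + 1), each gene centred on its own mean, among the 139 with at least 10 rescaled TPM in a library. For SLC13A4 these were SLC4A2 (0.21), a chloride bicarbonate exchanger, SLC4A5 (0.42), a sodium bicarbonate cotransporter, and FXYD1 (0.43), a regulator of the Na+/K+-ATPase. SLC4A2 had 697, 632 and 684 rescaled TPM in the male, female and FACS libraries and was listed at 0 in the tubule. For SLC13A1 the nearest was FXYD2 (0.05), another such regulator, with 357 rescaled TPM in the tubule and 0 in the other libraries, followed by SLC16A4 (0.40) and SLC3A1 (0.44). For SLC20A2 they were ABCA2 (0.11), SLC12A4 (0.19) and SLC66A2 (0.22), and for SLC20A1 SLC22A8 (0.11), NIPAL2 (0.12) and ABCB6 (0.14). For XPR1 they were SLC35G1 (0.16), SLC39A10 (0.23), a zinc transporter, and TMEM30A (0.26), a flippase subunit. TMEM30A had 249, 226 and 127 rescaled TPM in the male, female and FACS libraries. For SLC34A1 they were ABCG2 (0.31), SLC51B (0.41) and SLC5A12 (0.48), all of them tubule transcripts here. The measure rests on 4 libraries and no p is given for it.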

How the data were processed

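RNA was measured in 4 pooled rat libraries, sequenced as paired-end reads of 150 bases. Per the labels and the methods, the authors aligned reads with STAR 2.7.2a to Rnor_6.0 and estimated abundance with RSEM 1.3.3. The deposited files give, for 32883 gene IDs, an expected count (an estimate that need not be whole), a TPM (scaled by the authors to 1000000 per library) and an FPKM, used here in 1 alternative only. The deposited effective length, in bases, converted 3 counts to TPM. Strandedness is not given in the sources used here, so antisense and near-identical genes are uncertain.

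Gene names came from the supplementary lists, which pair 2452 IDs with a name, and only the ID and name columns were read. Ratios used log2(TPM + 1), which understates the change of low genes, relative to the median of genes at or above 0.5 TPM in either library, with 2-fold as the limit. Some related genes are not reported here. There is no test, since each condition has 1 library. The members, related genes and markers were chosen with earlier results of these data known. Named genes are all members, related genes with a name, selected markers and the 3 nearest in pattern for 6 members. Ratios and intervals were tested on simulated data. Alternatives were pseudocounts of 0.1 and 0.5, no reference to the median gene, leaving out the 10 highest genes per library, FPKM, mitochondrially encoded genes kept or removed, the female library as reference, cut-offs of 0.1, 1 and 5 TPM or 10 counts, no filter, and counts for TPM in shares. Python 3.11.15, numpy 2.4.6, pandas 2.3.3, scipy 1.17.1 and matplotlib 3.10.9 were used.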

Additional observations from a re-analysis of the deposited data

How the results depend on the processing

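For the 18 member ratios, 121 alternatives were run, of which 6 changed the sign and 13 crossed the 2-fold limit. One called ratio reversed: XPR1 in tubule over male moved from -1.12 to 0.63 on the log2 scale with a pseudocount of 0.1, and the cause was not tested. The number of members at least 2-fold lower in FACS over male was 1 and became 0 with pseudocounts of 0.1 and 0.5, with the 10 highest genes removed, with FPKM, with the female library as reference and with the filter of 5 TPM. In tubule over male the members called higher were 2 with the filter of 5 TPM. Members at the cut-off in the tubule were 3 at 5 TPM. With expected counts in place of TPM, SLC13A4 held 57.2% of the members in the male, 55.1% in the female and 52.9% in the FACS library, and SLC13A1 held 84.8% in the tubule.

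The share of all genes past 2-fold moved with the settings. In FACS over male the genes called lower were 10.9% with a pseudocount of 0.1, 25.5% without the median reference and 10.9% without a filter, and those called higher were 4.61% without the median reference and 1.97% without a filter. In female over male the shares higher and lower were 1.69 and 2.02% with a pseudocount of 0.1, 1.07 and 1.15% with 0.5, 0.186 and 0.404% without a filter and 0.372 and 0.383% with the filter of 5 TPM. In tubule over male they were 12.1 and 71% without the median reference, and 5.22% were higher without a filter. No paired analysis was possible because each condition has 1 library and no replicate numbers. Depth limits SLC13A2 and SLC13A3, which rest on at most 164 counts in every library.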
